A study of Homo sapiens with 6 samples.

Results

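Keratins are the intermediate filament proteins of epithelial cells. All 55 genes of the count table whose symbol is KRT with a number and, at most, one letter from A to C were taken, out of 36517 genes in the table. Pseudogenes, whose symbols hold a P, and genes of keratin-associated proteins are no members of this set. They comprised 29 type I and 26 type II keratins, 27 of them on chromosome 12 and 28 on chromosome 17, and all 55 lay at the same locus and on the same strand as in GENCODE release 29. The question was how the keratin genes differ between cells with and without a hairpin against tRF-1-Ser, a small RNA from the trailer of a serine transfer RNA precursor.

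The cells were MDA-MB-453, a human breast cancer line, and all 6 libraries were made at day 3. In 3 libraries the cells carried a lentivirus with the hairpin (shtRF), and in 3 libraries they carried the negative control lentivirus (control). Per the study the infected cells were stable ones, and these data cover this one line. The small RNA itself is not measured in mRNA libraries, and nothing states whether replicates came from separate infections, so p-values measure only the spread between these samples. Totals ran from 63541413 to 78917459 counts per library. Between 74.2% and 77.1% of the counts from 1 to 4 were even in each library, against 49.7% to 50.7% at the most counted genes, so a count at a gene with few reads may stand for fewer fragments. Markers of luminal breast cells such as GATA3 and EPCAM were present in every library. CPM values are counts per 1000000, taken over TMM-adjusted totals, with factors from 0.961 to 1.03.

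A keratin filament is built from pairs, each of a type I and a type II protein. Simple epithelia, such as the luminal cells of the breast, use KRT8 and KRT7 of type II with KRT18 and KRT19 of type I. Basal cells of stratified epithelia use KRT5 with KRT14, KRT15 or KRT17, cells above them use pairs such as KRT1 with KRT10 or KRT4 with KRT13, and wounded or stressed epithelium adds KRT6 and KRT16. Hair keratins are a further set. The type II genes lie side by side on chromosome 12, together with the single type I gene KRT18, and the other type I genes lie side by side on chromosome 17.

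The shared descent of these genes is visible in their coding sequence, which matters for how well reads can be told apart. Shown are 60 coding bases at the end of the central rod domain, a highly conserved stretch, for the type I keratins on which the results turn. The stretch was found through its conserved protein motif in 21 of 29 type I principal transcripts of GENCODE 29 (GRCh38). It lies in exon 6 of KRT18, KRT19, KRT16 and KRT17 and in exon 7 of KRT23. Capitals mark letters that differ from KRT18.
KRT18, chr12:52952266-52952325, plus strand: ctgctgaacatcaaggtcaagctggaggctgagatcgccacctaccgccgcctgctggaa
KRT19, chr17:41523791-41523850, minus strand: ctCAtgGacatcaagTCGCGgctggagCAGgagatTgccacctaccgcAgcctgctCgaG
KRT23, chr17:40925368-40925427, minus strand: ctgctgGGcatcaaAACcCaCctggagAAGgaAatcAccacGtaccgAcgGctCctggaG
KRT16, chr17:41610345-41610404, minus strand: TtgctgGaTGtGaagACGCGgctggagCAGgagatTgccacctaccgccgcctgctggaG
KRT17, chr17:41620673-41620732, minus strand: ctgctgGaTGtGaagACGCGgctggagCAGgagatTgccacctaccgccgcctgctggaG
KRT19 and KRT16 differed from KRT18 at 15 of 60 bases, KRT17 at 14 and KRT23 at 17. The median over all type I genes with the stretch was 15.5.

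Over whole transcripts, the share of windows of 75 bases found letter for letter in another keratin gene or keratin pseudogene was 0 for KRT4, KRT7, KRT10, KRT15, KRT19 and KRT23. It was 15.7% for KRT8 and 5.85% for KRT18, in both cases most often in a pseudogene, and 9.68% for KRT16, 4.19% for KRT17 and 36.6% for KRT81. The KRT81 windows were shared most with KRT86, another hair keratin. Counts of these last genes are uncertain to the extent that reads were split between copies.

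Of the 55 keratins, 18 had enough reads to be tested, and 10 of these passed the test: 4 were higher in shtRF (KRT4, KRT8, KRT18, KRT7) and 6 were lower (KRT23, KRT81, KRT17, KRT16, KRT15, KRT10). Of the 19628 genes that entered the quasi-likelihood fit (edgeR), 20.6% passed as higher and 18.9% as lower at an adjusted p under 0.05. The background for calls in either direction was thus 39.5%. Of the keratins, 5 passed with a change of over 2-fold (KRT4 higher, KRT23, KRT81, KRT17 and KRT16 lower), against 2.66% of all genes higher and 3.11% lower at that fold, or 5.77% in either direction. All 3 shtRF libraries lay above all 3 control libraries for 5 keratins and below them for 6, where 48.7% of all genes had groups that did not overlap. The median log2 fold change of the 18 was 0.12, against -0.0025 over all tested genes. In bulk samples such as these, fewer cells of a type and less RNA per cell cannot be told apart.

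**Figure D1:**
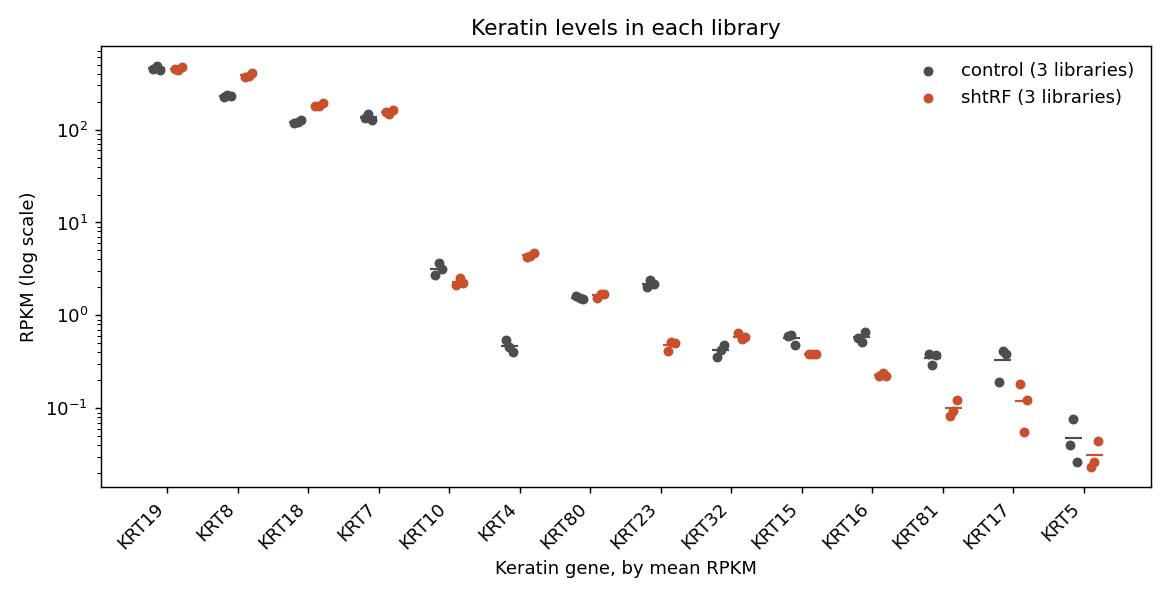
RPKM (counts divided by exonic length and by library total, log scale) of the 13 keratins with the highest mean and of KRT5 in each library. Points are libraries, lines are means of 3 libraries, grey is control and red is shtRF. KRT19, KRT8, KRT18 and KRT7 stood above 100 RPKM in every library, KRT4 went from 0.467 to 4.44 RPKM, and KRT23 went from 2.19 to 0.480 RPKM.

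The luminal keratins carried nearly all keratin mRNA, and 3 of the 4 were called higher in shtRF. Of all tested genes, 20.6% were called higher and 18.9% lower. KRT8 (chromosome 12, 52897187 to 52949954), the general type II keratin of simple epithelia, had 99591, 118120 and 125868 counts in control and 176302, 186317 and 176702 in shtRF. The groups were far apart, at 1556 ± 23.6 and 2690 ± 171 CPM (means ± SD of 3 libraries, as in all CPM values below), and KRT8 rose by 0.79 ± 0.06 on the log2 scale (± SE here and below; adjusted p = 3.88e-10, edgeR). KRT18 (chromosome 12, 52948871 to 52952901), its type I partner, had 24281, 28827 and 32097 counts in control and 40212, 41197 and 39085 in shtRF. At 385 ± 14.8 and 601 ± 28.9 CPM, it rose by 0.64 ± 0.06 on the log2 scale (adjusted p = 5.10e-09). Both partners therefore moved in the same direction, and neither gene's groups overlapped.

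KRT8 and KRT18 are neighbours on opposite strands, and 525 bases are exonic in both, which is 16.3% of the exonic bases of KRT18 and 7.63% of those of KRT8. Reads in these bases cannot be told apart unless strand was used in the counting. The study names a stranded library kit, but the strand setting of the counting is not given. KRT8 pseudogenes, of which 41 are in the table, held 1.89% to 2.08% of the KRT8 count in the control libraries and 1.45% to 1.66% in the shtRF libraries. The most counted of them, KRT8P12, was at 15.2 ± 0.587 CPM in control and rose by 0.48 on the log2 scale to 21.2 ± 0.498 (adjusted p = 1.18e-05), and KRT8P3 rose by 0.49 (adjusted p = 5.85e-04). KRT8P39 fell by 1.45 on the log2 scale (adjusted p = 3.02e-04), so the copies did not all move with KRT8. The 38 KRT18 pseudogenes held 0.374% to 0.799% of the KRT18 count, and the 3 of KRT19 at most 0.0454% of the KRT19 count. The named pseudogenes were picked after their values were seen.

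KRT7 (chromosome 12, 52232520 to 52252186), the type II keratin of ducts and glands, had 34939, 43902 and 41291 counts in control and 44643, 43426 and 42129 in shtRF. Raw counts overlap, but once scaled to depth the groups did not: 517 to 581 CPM in control and 632 to 679 CPM in shtRF, a log2 fold change of 0.25 ± 0.06 (adjusted p = 0.00119). Of its exonic bases, 7.67% are shared with genes on the other strand. KRT19 (chromosome 17, 41523617 to 41528308), the type I keratin of ducts and a common marker of carcinoma cells, had 66572, 83319 and 80540 counts in control and 73038, 72688 and 70319 in shtRF. Its groups overlapped at 1045 ± 50.7 and 1077 ± 49.8 CPM, with a log2 fold change of 0.04 ± 0.06 (adjusted p = 0.584; 95% interval -0.07 to 0.16), and its sign turned with limma on log2(RPKM + 1), where the value was -0.01. The median log2 fold change of the 4 luminal keratins was 0.45.

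The unequal changes of the 4 genes showed in the makeup of keratin mRNA. Summed over all 55 keratins, RPKM was 934, 996 and 933 in control and 1163, 1153 and 1243 in shtRF, which did not overlap. KRT19 made up 47.7% ± 0.905 of this sum in control and 38.2% ± 0.407 in shtRF. KRT8 made up 24.2% ± 0.722 and 32.3% ± 0.646, and KRT18 12.8% ± 0.679 and 15.5% ± 0.0814, both higher in every shtRF library. KRT7 had a share of 14.2% ± 0.470 in control and 13.1% ± 0.300 in shtRF, below the control libraries although its own level was higher. Together the 4 luminal genes held 98.9% ± 0.0471 of keratin RPKM in control and 99.1% ± 0.0129 in shtRF.

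**Figure D2:**
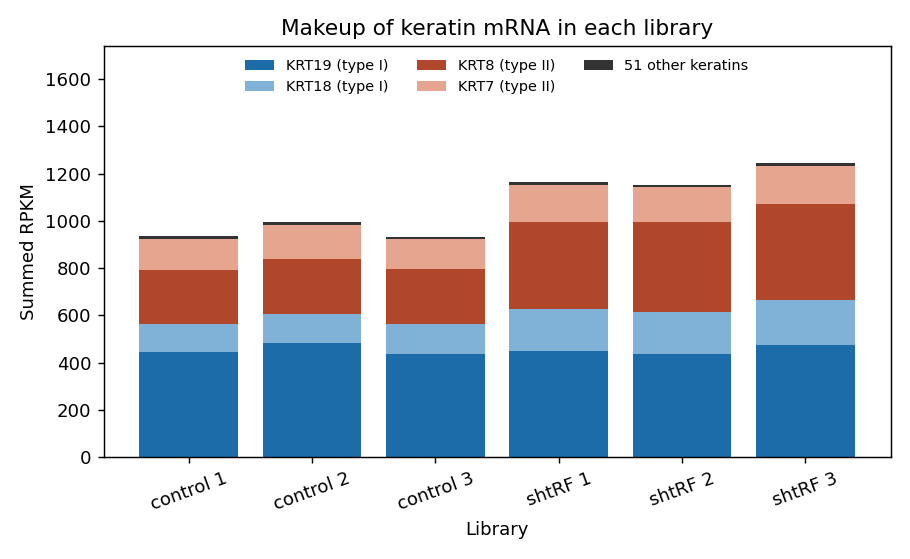
Summed RPKM of all 55 keratins in each library, stacked by gene, with type I keratins in blue and type II in red. The total is 954 in control and 1186 in shtRF on average, and the KRT8 segment grows while the KRT19 segment has about the same height in all 6 libraries.

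The balance of the types lay further towards type II in shtRF. The summed type I RPKM was 585 ± 25.0 in control and 640 ± 26.1 in shtRF, and the summed type II RPKM was 369 ± 10.9 and 546 ± 23.8. The ratio of type I to type II was 1.573, 1.61 and 1.575 in control and 1.192, 1.159 and 1.167 in shtRF, with every shtRF library below every control library. Its size depends on the length taken for each gene. The table's length merges the exons of all transcripts, which makes KRT8 6881 bases long against 2126 for its principal transcript. With principal transcript lengths, an alternative chosen after seeing the data, the mean ratios were 0.963 in control and 0.709 in shtRF, and without genes that share at least 10% of their exonic bases, KRT18 among them, they were 1.26 and 0.837. The order of levels depends on it as well: by table length KRT19 was above KRT8 in both groups (456 and 230 RPKM in control, 453 and 383 in shtRF), and by principal length the control values were 766 ± 42.1 and 746 ± 11.4, which overlapped, with KRT8 above KRT19 in shtRF at 1241 against 761.

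Ratios within partners do not depend on depth. KRT8 to KRT18 was 1.918, 1.916 and 1.834 in control and 2.05, 2.115 and 2.114 in shtRF, a log2 difference of 0.15. KRT7 to KRT19 went from 0.298 ± 0.00439 to 0.344 ± 0.00430, a log2 difference of 0.21. Between luminal keratins of one type, KRT8 to KRT7 was 1.70 ± 0.107 in control and 2.47 ± 0.105 in shtRF, and KRT19 to KRT18 was 3.74 ± 0.265 and 2.47 ± 0.0364. Each of these 4 ratios had groups that did not overlap, and each two-sided exact permutation p was 0.1, which is the smallest that 3 against 3 libraries can give (0.12 after adjustment over the 6 ratios tested). The ratio of KRT1 to KRT10 overlapped between groups (exact permutation p = 0.3).

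**Figure D3:**
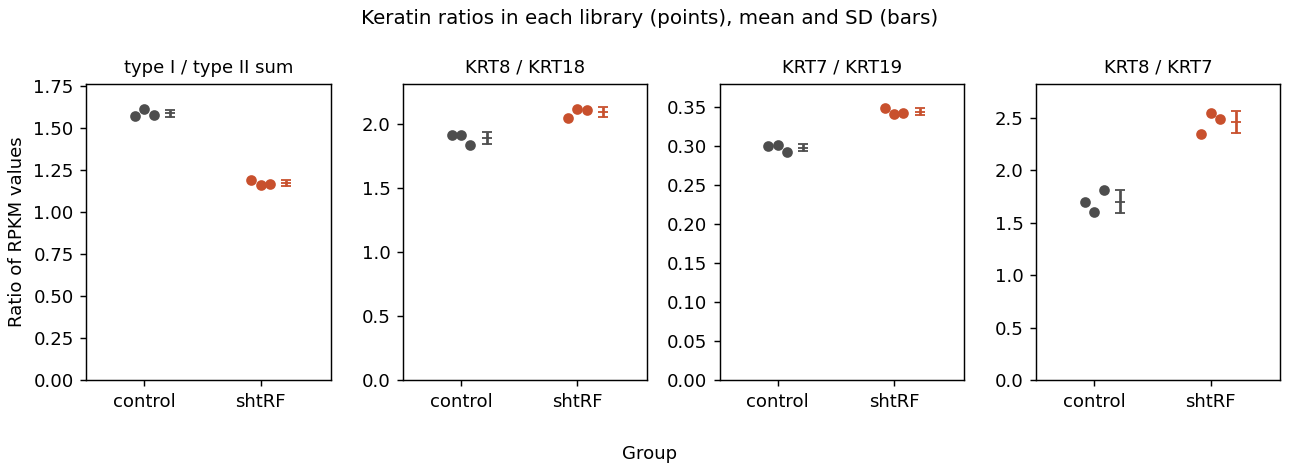
Ratio of summed type I to type II RPKM and 3 ratios of single keratins in each library. Points are libraries, bars beside them are the mean and SD of 3, and every axis starts at 0. The type I to type II ratio is 1.59 in control and 1.17 in shtRF, and KRT8 to KRT7 is 1.70 and 2.47.

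The keratins of basal and stratified epithelium were present at about 1% of keratin mRNA or less, and most of those that changed were lower in shtRF. Of 21 such genes 10 were tested, of which 1 was higher (KRT4) and 4 were lower (KRT10, KRT15, KRT16 and KRT17). Over all tested genes, 20.6% were called higher and 18.9% lower. The median log2 fold change of these keratins was -0.16, against 0.45 for the luminal keratins. This median turned to 0.09 when no filter was applied and to 0.05 without shtRF replicate 2. It was -0.05, -0.35 and -0.40 without control replicate 2, shtRF replicate 1 and shtRF replicate 3. Its sign thus depends on these choices, which also change the genes that are tested. Their summed RPKM was 5.63 ± 0.673 in control and 8.03 ± 0.339 in shtRF, and without KRT4 it was 5.16 ± 0.708 and 3.59 ± 0.108, so that KRT4 alone turned the direction of the sum.

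KRT4 (chromosome 12, 52806549 to 52814551), the type II keratin of the mucosal epithelium of mouth and oesophagus, had the largest log2 fold change of the 18 tested keratins. It had 115, 111 and 105 counts in control and 977, 1037 and 989 in shtRF, with no overlap. At 1.52 ± 0.230 and 14.98 ± 1.02 CPM it was 9.92-fold higher, a log2 fold change of 3.31 ± 0.12 (adjusted p = 4.60e-15). KRT4 shares no exonic bases with another gene. It held 4.44% ± 0.918 of the RPKM of the 51 keratins that are not luminal in control and 39.6% ± 0.683 in shtRF, although the summed level of these genes overlapped between groups at 10.6 ± 0.803 and 11.2 ± 0.414 RPKM. Its usual type I partner KRT13 was almost silent, with 14, 9 and 6 counts in control and 5, 12 and 13 in shtRF (log2 fold change 0.17 ± 0.60, adjusted p = 0.861). The ratio of KRT4 to KRT13 was 11.2 ± 4.09 in control and 105 ± 58.1 in shtRF (exact permutation p = 0.1, adjusted 0.12).

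KRT16 (chromosome 17, 41609778 to 41615899), the type I keratin of wounded and hyperproliferative epidermis, had 90, 94 and 128 counts in control and 38, 42 and 35 in shtRF. Its groups did not overlap, at 1.41 ± 0.181 and 0.572 ± 0.0359 CPM, and it fell by 1.30 ± 0.25 on the log2 scale (adjusted p = 2.36e-04). KRT17 (chromosome 17, 41619437 to 41624842), found in basal cells of glands and in hair follicles, had 31, 78 and 76 counts in control and 32, 10 and 20 in shtRF. At 0.820 ± 0.300 and 0.308 ± 0.155 CPM, it fell by 1.42 ± 0.40 on the log2 scale (adjusted p = 0.00759). Control replicate 1, at 0.476 CPM, was close to the highest shtRF library at 0.455 CPM, and without control replicate 2 the adjusted p was 0.0505. The stress keratin KRT6A, KRT6B and KRT6C genes were not tested for lack of reads.

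KRT15 (chromosome 17, 41513743 to 41522529), a type I keratin of basal cells, had 275, 323 and 271 counts in control and 190, 197 and 173 in shtRF. With means of 3.96 ± 0.495 and 2.79 ± 0.0818 CPM, it fell by 0.51 ± 0.14 on the log2 scale (adjusted p = 0.00646). KRT10 (chromosome 17, 40818117 to 40822595), the type I keratin of the layers above the basal one, had 376, 578 and 529 counts in control and 320, 385 and 307 in shtRF. With 6.68 ± 0.937 and 5.04 ± 0.530 CPM, it fell by 0.41 ± 0.12 on the log2 scale (adjusted p = 0.0105). This call was lost without control replicate 2 (adjusted p = 0.0754) and without shtRF replicate 1 (adjusted p = 0.0545). Without control replicate 2, where KRT17 was lost as well, 4 keratins were called lower. For neither gene did the groups overlap.

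The defining basal pair was at the edge of detection. KRT5 had 11, 24 and 9 counts in control and 7, 8 and 12 in shtRF, which overlap (log2 fold change -0.56 ± 0.56, adjusted p = 0.475; 95% interval -1.66 to 0.55). KRT14 had 2, 12 and 5 counts in control and 1, 4 and 0 in shtRF and was not tested, and a count of 0 still allows up to 3 counts. KRT1 and KRT2 of the epidermis and KRT3 of the cornea had 2 to 32 counts in every library, overlapped between groups and did not pass the test (log2 fold changes 0.09, 0.21 and 1.19, adjusted p = 0.915, 0.800 and 0.107).

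Outside these classes, KRT23 (chromosome 17, 40922696 to 40937634), a type I keratin known from gastrointestinal epithelium, had the lowest log2 fold change of the 18. It had 371, 518 and 493 counts in control and 84, 107 and 94 in shtRF, which lie far apart. The means were 6.24 ± 0.580 and 1.42 ± 0.198 CPM, and KRT23 fell by 2.14 ± 0.15 on the log2 scale (adjusted p = 1.34e-10). Of its exonic bases, 6.41% are shared with a gene on the opposite strand. KRT80, a type II keratin of differentiating epithelia, had 449, 494 and 509 counts in control and 470, 523 and 470 in shtRF. Its groups overlapped, and its log2 fold change was 0.14 ± 0.10 (adjusted p = 0.289; 95% interval -0.06 to 0.34).

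Among 26 hair follicle keratins, 24 were too low to test. KRT81 (chromosome 12, 52285913 to 52291534), a type II keratin of the hair cortex, had 47, 42 and 57 counts in control and 11, 13 and 15 in shtRF. With 0.664 ± 0.0937 and 0.196 ± 0.0430 CPM, it fell by 1.76 ± 0.39 on the log2 scale (adjusted p = 0.00108). Its close copy KRT86, named after its values were seen, had 3, 21 and 11 counts in control and 0, 0 and 8 in shtRF and was not tested. KRT32, a type I keratin of the hair cuticle, had 40, 55 and 66 counts in control and 78, 69 and 65 in shtRF. Scaled to depth it was 0.615 to 0.826 CPM in control and 1.004 to 1.11 CPM in shtRF, which do not overlap, but its log2 fold change of 0.54 ± 0.26 did not pass the test (adjusted p = 0.105).

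In all, 37 keratins were not tested. Their highest count in any library was 21, and their counts summed over 6 libraries ran from 3 to 49, with a median of 9. For 30 of them no library exceeded 10 counts, and for 8 no library exceeded 3. Of the untested genes 17 lie on chromosome 12 and 20 on chromosome 17. Fitted without a filter, none of the 37 passed the edgeR test, and 1 had an unadjusted p under 0.05. KRT12, the type I keratin of the cornea, had 9, 13 and 2 counts in control and 4, 0 and 0 in shtRF. It entered the fit without shtRF replicate 1 and was then called lower (adjusted p = 0.0197, edgeR). In that fit every shtRF count was 0, so KRT12 passed the filter through control alone, and the call is no support for a change. It was not called without shtRF replicate 3 (adjusted p = 0.223). It was named after its values were seen.

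Sorted by position, the calls separated by locus, apart from 1 gene. The type II locus on chromosome 12 spans 52168996 to 52952901, or 0.784 Mb, and holds 27 keratins including KRT18. Of these 10 were tested, 4 were higher (KRT7, KRT4, KRT8 and KRT18) and 1 was lower (KRT81), with a median log2 fold change of 0.23, which was 0.45, 0.59 and 0.46 without control replicate 1, control replicate 2 and shtRF replicate 2. The type I locus on chromosome 17 spans 40654665 to 41624842, or 0.970 Mb, and holds 28 keratins. Of these 8 were tested, none was higher and 5 were lower (KRT10, KRT23, KRT15, KRT16 and KRT17), with a median of -0.46. Over all tested genes, 20.6% were called higher and 18.9% lower. By protein type instead of position, 1 of 9 tested type I keratins was higher and 5 were lower, and 3 of 9 tested type II keratins were higher and 1 was lower. The gene that parted the 2 views was KRT18, which is of type I and lies beside KRT8.

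**Figure D4:**
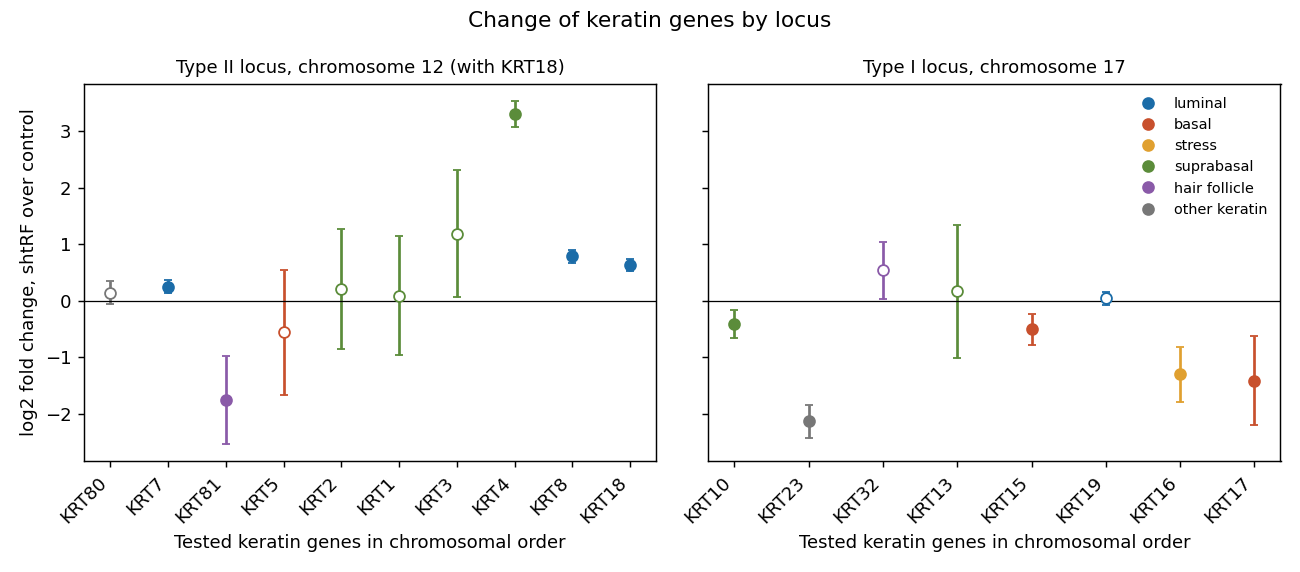
Log2 fold change (shtRF over control, edgeR) of the tested keratins in chromosomal order, on chromosome 12 (left) and chromosome 17 (right), coloured by class. Bars are 95% intervals not adjusted for the number of genes, and filled points passed the test at an adjusted p under 0.05. On chromosome 12 the values run from -1.76 to 3.31 with 4 genes called higher, and on chromosome 17 from -2.14 to 0.54 with 5 called lower.

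Other genes within the loci were mostly unread. Between the keratins of chromosome 12 lie 24 other genes, of which 5 were tested, with 1 higher and none lower. Their median log2 fold change was 0.07. Between those of chromosome 17 lie 29 other genes, of which 7 were tested, with none higher and 2 lower. The median of these 7 was -0.70, so low values in this locus were not limited to keratins. Some of these tested genes share exonic bases with keratins: RP3-416H24.1 and KRT87P with KRT7, TMEM99 with KRT10, and AC004231.2 with KRT23. The 16 genes of keratin-associated proteins there, which belong to hair, had at most 10 counts in any library. Of the 12 nearest tested genes outside the loci, 3 on each side of each, 1 was higher, 5 were lower and 6 were not called. The share of all tested genes called in either direction was 39.5%. ATG101, of an autophagy protein, on the side of KRT80, rose by 0.39 ± 0.06 on the log2 scale (adjusted p = 4.35e-05). The first tested gene beyond KRT18 was EIF4B, which encodes a translation initiation factor. With 735 CPM in control and 393 in shtRF it fell by 0.90 ± 0.06 (log2; adjusted p = 1.91e-11), opposite to KRT18 and KRT8. On chromosome 17 SMARCE1, a chromatin remodelling subunit gene on the outer side of KRT222, KRT24 and KRT10, fell by 0.44 ± 0.06 (adjusted p = 1.84e-06), and EIF1, beyond KRT17, fell by 0.27 ± 0.09 (adjusted p = 0.0237).

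The region before the start of the gene also differs between keratins. The set of promoters used here, at RefSeq starts (GRCh38.p14), held 34 of the 55 keratins. The 250 bases before each start were searched on both strands. Keratins with no entry in this set, KRT7, KRT18 and KRT19 among them, were not searched. The letters TATAAA of the TATA box were found in 21 of the 34, against 10.7% of 35116 promoters of the same length, and AGATAA of a GATA site in 14, against 9.17%. GGGCGG of a GC box was found in 4, against 42.6%, GCGTG in 4, against 32.2%, CACGTG in 1, against 6.34%, and the AP-1 letters TGANTCA in none, against 6.57%. Of the keratins that passed the test only KRT4, KRT8 and KRT10 had an entry, and among these only KRT10 held TATAAA or AGATAA. The RefSeq start used for KRT8 lies 23373 bases from that of its principal GENCODE transcript, and the start used for KRT4 435 bases. The window searched is thus not the one before those transcripts, and for KRT10 the distance is 19 bases.

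Other intermediate filament genes were called about as often as all genes. Of 16 genes found, 7 were tested, 2 were higher (SYNM and BFSP1, of synemin and a lens filament protein), 1 was lower (LMNB1, of the nuclear lamina), and none changed over 2-fold, where 39.5% of all genes were called and 5.77% changed over 2-fold. Their median log2 fold change was 0.01. VIM, the vimentin gene of mesenchymal cells, had 0, 0 and 4 counts in control and 0 in every shtRF library.

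Genes listed as linkers of keratin filaments, not all of them to junctions, changed in both directions, with some large changes. FLG, which was not called, is also counted among the cornification genes below. Of 15 linkers tested, 5 were higher and 5 were lower, and their median log2 fold change was -0.03. Over all tested genes, 20.6% were called higher and 18.9% lower, and 5.77% were called with over 2-fold in either direction. DSP, which encodes desmoplakin, the protein that anchors keratin to desmosomes, stood at 218 ± 12.9 CPM in control and 19.7 ± 1.41 in shtRF and fell by 3.47 ± 0.07 (log2; adjusted p = 1.70e-19). DST, which encodes dystonin, whose epithelial form ties keratin to hemidesmosomes, stood at 207 ± 4.4 CPM in control and 603 ± 16.2 in shtRF and rose by 1.54 ± 0.05 (log2; adjusted p = 1.98e-15), with no separation of its forms in these counts. PKP1 and PKP2, of the desmosomal plakophilins, fell by 1.52 and 1.57 on the log2 scale (adjusted p = 0.00596 and 0.00455), both from under 1 CPM. The more highly counted plakophilin gene PKP3 overlapped between groups, at 28.9 ± 1.99 CPM in control and 28.0 ± 1.54 in shtRF. Its log2 fold change was -0.04 (adjusted p = 0.666, edgeR).

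**Figure D5:**
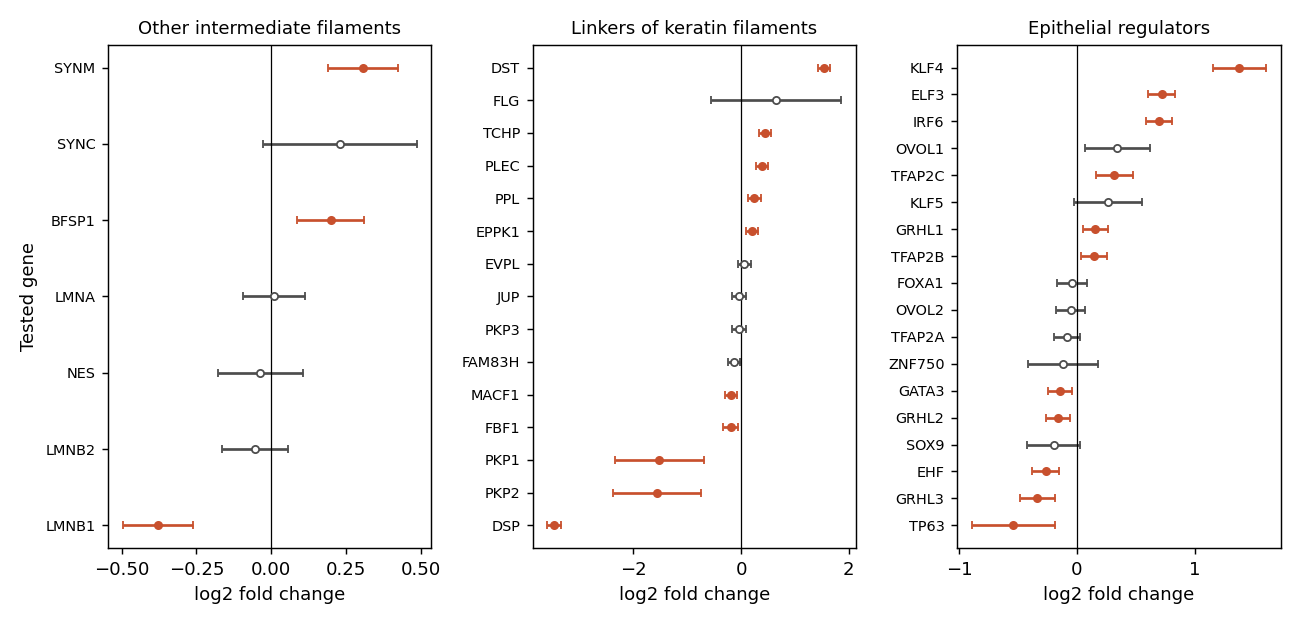
Log2 fold change (shtRF over control, edgeR) of tested genes of other intermediate filaments, linkers of keratin filaments and epithelial regulators. Bars are 95% intervals not adjusted for the number of genes, and filled red points passed the test at an adjusted p under 0.05. Each panel has its own axis range. DSP at -3.47 and DST at 1.54 lie farthest out among the linkers, and KLF4 at 1.38 among the regulators.

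Of 19 epithelial transcription factor genes 18 were tested, 6 were higher and 5 were lower, with a median of -0.05. Of all tested genes 20.6% were called higher and 18.9% lower, and 5.77% were called with over 2-fold in either direction. Among the factors only KLF4, of the epidermal barrier, changed over 2-fold. KLF4 stood at 4.24 ± 0.618 CPM in control and 11.1 ± 1.02 in shtRF and rose by 1.38 ± 0.11 (log2; adjusted p = 2.38e-09). Of 18 cornification genes, which build the outer layer of skin, 8 were tested. Of these 2 were higher and 3 were lower, against the same shares of all genes. IVL, of the cornified envelope protein involucrin, stood at 0.331 ± 0.185 CPM in control and 1.04 ± 0.136 in shtRF and rose by 1.64 (log2; adjusted p = 9.18e-04). CASP14, of an epidermal caspase, stood at 29.8 ± 5.99 CPM in control and 0.381 ± 0.0897 in shtRF and fell by 6.27 (log2; adjusted p = 4.84e-17). CDSN, of corneodesmosin, fell by 1.09 (adjusted p = 6.89e-09), but 93.8% of its exonic bases are shared with another gene. None of these lists gave the same direction for all of its members.

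Markers of other cell types were low in both groups. The 7 myoepithelial markers summed to 23.4 to 27.1 CPM in control and 21.8 to 23.8 CPM in shtRF, with ACTA2 at no more than 16 counts and CNN1 at no more than 7. The 9 mesenchymal markers summed to 36.5 to 41.6 and 27.0 to 28.1 CPM, mostly from COL1A1. The 7 markers of leukocytes and endothelium summed to 4.50 to 5.43 and 6.07 to 8.27 CPM, mostly from CD68, of whose exonic bases 85.8% are shared with another gene, with CD3E at no more than 3 counts in any library. Of the 5 myoepithelial markers tested, CDH3 was higher (log2 fold change 0.77, adjusted p = 8.90e-06), and TP63, MYLK and MYH11 were lower, by the test that calls 39.5% of all genes. Their part in the keratin values was not tested.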

How the data were processed

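mRNA of MDA-MB-453 cells was sequenced as read pairs, per the study from libraries made with a stranded kit. The authors deposited raw counts per gene with exon coordinates and exonic lengths, and RPKM values for the same 6 libraries. The submitters' processing notes name GRCh38, Trimmomatic 0.36, featureCounts, Subread 1.5.1 and edgeR 3.12.1. The aligner and the strand setting of the counting are not given in the sources used here. The part of the RPKM table used here equalled count divided by exonic length and library total for 100% of 4991 genes (relative tolerance 0.0001), so RPKM was recomputed for all genes.

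Counts were tested with edgeR 4.0.16 (R 4.3.3): filterByExpr (minimum count 10), TMM normalisation, quasi-likelihood test with group as the only term, and Benjamini-Hochberg adjustment over 19628 genes at 0.05. SEs were the size of the log2 fold change divided by the square root of F. Ratios of RPKM were compared with two-sided exact permutation tests. Keratins were assigned to types and classes by hand, and loci were taken from the count table and GENCODE 29. The tests were checked on simulated counts. Alternatives were other scalings, filters, halved counts, the edgeR exact test, DESeq2 1.42.0, limma 3.58.1 on log2(RPKM + 1) and log2(RPKM + 0.1), a replicate block and leaving out each library.

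Values per library are given for keratins called with a change of over 2-fold, for the 10 with the highest mean RPKM, and for KRT5, KRT7, KRT8, KRT14, KRT17, KRT18 and KRT19. Of the other gene lists, members called with over 2-fold were named by rule, and any other member named was picked after its values were seen. The keratins and the lists were chosen with earlier results of these data known. Some sequences and 1 gene are not reported here.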

Additional observations from a re-analysis of the deposited data

How the results depend on the processing

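The keratins were refitted under 16 alternatives. Of 278 values of the 18 tested keratins, 265 kept their direction and their side of the threshold, and 11 keratins did so in every alternative that tested them. The 9 changes of sign concerned genes that passed no test. With single libraries left out, log2 fold changes ran from -0.13 to 0.59 for KRT1 (below 0 without control replicate 1 or 3 or shtRF replicate 1), from -0.081 to 0.46 for KRT2 (below 0 without control replicate 2 or shtRF replicate 3) and from -0.13 to 0.62 for KRT13 (below 0 without control replicate 3 or shtRF replicate 3). KRT19 was at -0.0089 with limma on either RPKM scale. KRT10 and KRT17 lost their call as given above, and KRT32 gained one with limma on log2(RPKM + 1) (0.16, adjusted p = 0.0347). The number of keratins called higher was 4 in every fit that left out a library, and the number called lower was 4 to 6. The 6 called lower without shtRF replicate 1 include KRT12 in place of KRT10. That call of KRT12 is no support for a change, as given above.

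Medians over classes moved under some alternatives, and the cause was not tested. They were not always taken over the same genes: 18 keratins entered the main fit and 55 the fit without a filter. With at least 10 counts in every library or with halved counts 13 entered, and with a library left out 19. Without a filter the medians were 0.088 for basal and stratified and -0.62 for type I locus keratins. With at least 10 counts in every library they were -0.52 for basal and stratified and 0.43 for type II locus keratins, and with halved counts -0.53 and 0.43. With limma on log2(RPKM + 1) the medians were 0.39 for luminal, -0.0096 for basal and stratified, -0.21 for type I locus and 0.080 for type II locus keratins, and on log2(RPKM + 0.1) 0.39 for luminal and 0.14 for type II locus keratins. Leaving out single libraries gave -0.40 to 0.046 for basal and stratified, -0.51 to -0.38 for type I locus, 0.19 to 0.59 for type II locus and 0.41 to 0.46 for luminal keratins.

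Over all genes with a change of over 2-fold, limma gave 88 higher and 107 lower on log2(RPKM + 1), and 294 and 404 on log2(RPKM + 0.1), against 522 and 611. A larger pseudocount compresses changes of genes with few reads. The ratio of type I to type II RPKM was 1.26 in control and 0.837 in shtRF without genes sharing at least 10% of exonic bases, and 0.963 and 0.709 with principal transcript lengths. The luminal share was 98.7% and 98.9% in the former and 99.4% and 99.5% in the latter.

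Same-numbered samples showed little shared deviation from their group means, with correlations of 0.059, 0.018 and 0.017. These values cannot tell whether such samples were handled together. With a replicate block 4 keratins were higher and 6 were lower, KRT8 had a log2 fold change of 0.79, and 4123 genes in all were higher and 3776 lower. Low counts limit KRT1, KRT2, KRT3, KRT5, KRT13 and the 37 untested keratins.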
